A study of Xenopus tropicalis with 9 samples.

Results

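The head and the heart of adult western clawed frogs (Xenopus tropicalis) were compared by sequencing mRNA libraries, with a female and a male library of each tissue. The 4 libraries were female head, male head, female heart and male heart, out of 9 in the series. They were chosen by their tissue and sex labels. All are labelled adult, and the labels give no strain, treatment or exact age. A head is a mixed sample with skin, skull, jaw muscle, brain, eyes and glands. The labels do not say which parts of either organ were taken, whether animals were pooled, or whether the head and heart of a sex came from the same animal. There was 1 library per sex and tissue. With a term for sex in the fit, the p-values rest only on how the tissue difference varied between the sexes in these samples. That variation may be technical. The test draws the spread of each gene towards that of other genes, so a p-value does not measure the agreement of that gene alone. The other libraries (female intestine, ovary, GI tract and lung, and male testes) are used only to show where some genes were high elsewhere, and in an alternative fit of all 9 libraries.

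Heart muscle beats throughout life on oxidative metabolism. Its thick and thin filaments are built from cardiac versions of myosin, actin and troponin, and many of these proteins have a close relative, a paralogue, that serves fast skeletal muscle. A small set of transcription factors, among them Nkx2-5, Gata4 and Tbx5, switches on these genes, and atrial muscle also secretes natriuretic peptides. The head holds the brain with its neurons and synapses, sense organs and the pituitary. It also has a stratified skin with glands, cartilage, bone and teeth, and the jaw muscles.

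The libraries held 30045813 to 34202200 counts. Genes with at least 1 TPM (transcripts per 1000000, a level corrected for transcript length) numbered 17744 and 17673 in female and male head, against 12938 and 12497 in female and male heart. The tissue labels held up against defining markers. The atrial light chain gene myl7 had 0.28 and 2.86 TPM in the female and male head, against 19795 and 28174 TPM in the female and male heart. The olfactory G protein gene gng13 had 172 and 125 TPM in the heads, against 0.03 TPM in each heart. The female heart also held high levels of oocyte and cell cycle genes: 45 cell cycle genes summed to 1185 and 302.6 TPM in the female and male heads, against 25710.0 and 73.7 TPM in the female and male hearts, and 32 tested oocyte genes with the list's untested ones to 686.1 and 332.9 TPM, against 10130.0 and 171.6 TPM. The female head in turn held digestive enzyme genes. The 20 genes of the exocrine pancreas list summed to 1629 TPM there and to 25.2 TPM in male head, against 26.2 and 11.9 TPM in the female and male hearts. Many counts below are also given without the female heart, from a fit with the tissue term alone. That fit called a larger share of all genes tested in each direction than the fit with the sex term. A larger count in a list without the female heart is therefore no result by itself.

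Head and heart differed at 2784 of 19276 genes tested, or 14.4% (edgeR quasi-likelihood test with sex as a block, Benjamini-Hochberg adjusted p under 0.05). Of these, 2510 were higher in head, 13% of the genes tested, and 274 were higher in heart, 1.42%. The filter asked for enough counts in as many libraries as a tissue has. A gene nearly absent from both hearts was therefore tested only if both heads held it, which favours a head call. The same applies to heart calls of genes nearly absent from the heads. The shares of calls in the lists below are therefore descriptions. Nearly all of the head calls agreed between the sexes. Agreement was set as a head minus heart difference of at least 1 log2 unit, that is at least 2-fold, in the same direction in both sexes, and 2509 head calls (13% of genes tested) and 267 heart calls (1.39%) met it. Of all genes tested, called or not, 26.5% were higher in head by this measure in both sexes and 7.84% were higher in heart. In 31.8% the signs were opposite in the sexes or 1 sex showed no difference. The fit favours genes on which the sexes agree, so the agreement of the called genes is no separate support. With at least 3 log2 units (8-fold) in both sexes, 2252 head calls and 123 heart calls were left.

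The number of calls depended on the sex term and on single libraries. Without the sex term edgeR called 0 genes. The lowest adjusted p was then 0.0664, and 4670 genes were under an unadjusted p of 0.05. Each pair of tissues within a sex is 1 library against 1, so the difference between the sexes could not be tested. With the tissue term alone, edgeR called 4319 genes higher in head and 2371 higher in heart without the female heart, and 6506 and 4721 without the male heart. It called 489 and 93 without the female head and 445 and 4 without the male head. Of the heart calls without the female heart, 902 met the agreement measure.

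**Figure D1:**
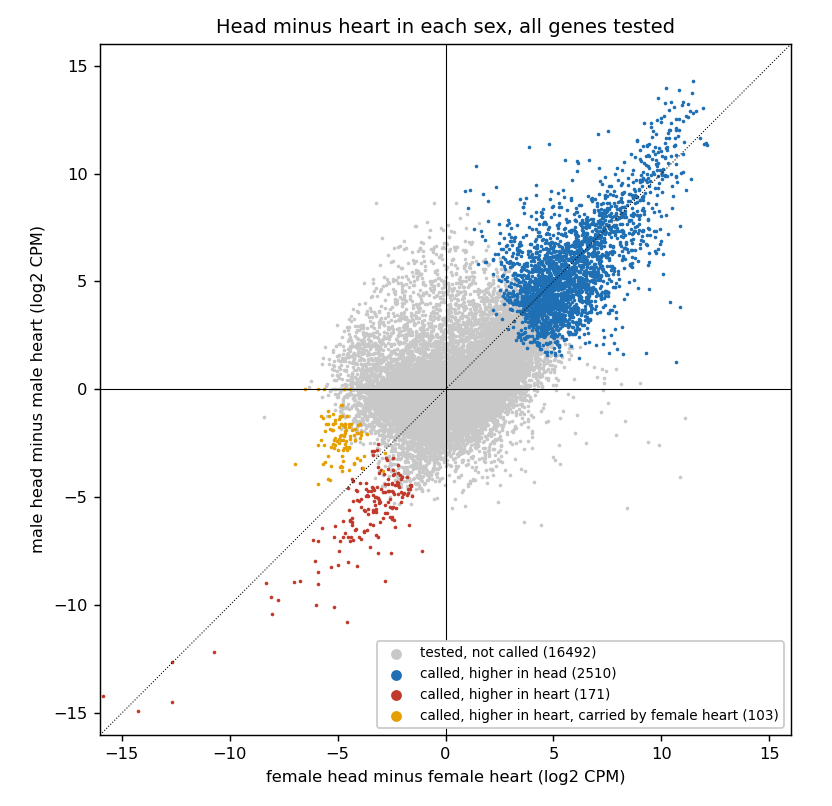
Head minus heart difference in log2 CPM (counts per 1000000) for each of the 19276 genes tested, female pair on the horizontal axis and male pair on the vertical axis, coloured by call. The 2510 head calls (blue) lie in the upper right, the 171 heart calls not carried by the female heart (red) mostly below the dotted line of equal difference, and the 103 carried by the female heart (orange) to the left with smaller male differences.

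The genes called higher in head and agreeing in both sexes took 25.5% and 26.3% of all transcripts in female and male head, against 0.131% and 0.179% in female and male heart. Their median level was 9.09 and 10.5 TPM in the heads, against 0.04 and 0.03 TPM in the hearts. In bulk tissue such a difference can come from more cells of a type or from more RNA per cell, and these cannot be told apart. For 629 of 30330 genes the files list at least 1 TPM in both heads and 0 TPM in both hearts, and for 8 they list the reverse.

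Among the 12 most abundant head calls with a difference of at least 3 log2 units in both sexes were genes of fast muscle fibres (tnnc2, tnnt3, myl1, mylpf, atp2a1 and pvalb) and the keratin genes krt5.4 and krt6. The RNA-binding Y-box gene ybx3, the most abundant, had 4740.4 and 8172 TPM in female and male head, against 1.92 and 1.57 TPM in female and male heart (log2 fold change 10.99, SE 1.72, adjusted p = 1.99e-08). The epidermal keratin gene krt6 had 3100.1 and 3440.0 TPM in the heads, against 1.27 and 0.21 TPM in the hearts. The fast troponin T gene tnnt3 had 3455 and 5367 TPM in the heads, against 1.3 and 0.54 TPM in the hearts. All 3 genes were thus high in both heads and near 0 in both hearts. The calcium-buffering parvalbumin gene pvalb had 1498 and 4701 TPM in the heads, against 0.44 and 0.43 TPM in the hearts, and its neighbour in name pvalb.1 had 2407 and 2949 TPM, against 1.52 and 0.23 TPM. The gene darmin had 2975 TPM in female head and 914 TPM in male head, against 1.22 and 0.19 TPM in the hearts. Parvalbumin and keratin genes have near-identical copies, and their single levels are uncertain where reads could be split between copies. The group also held ly6g6d.

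Among the 12 most abundant on the heart side were genes of the cardiac filaments and of energy metabolism. The cardiac myosin heavy chain gene myh6 had 52.8 and 42.8 TPM in female and male head, against 4084 and 11851 TPM in female and male heart (log2 fold change -7.97, SE 1.83, adjusted p = 0.000327). The cardiac actin gene actc1 had 337 and 326 TPM in the heads, against 4777 and 11189 TPM in the hearts (log2 fold change -5.26, SE 1.44, adjusted p = 0.00362). The RNA-binding gene rbpms2 had 29.3 and 15.1 TPM in the heads, against 1135 and 4009 TPM in the hearts. These genes were chosen for a difference of at least 3 log2 units in both sexes, so heads and hearts apart largely follow from the choice. In myh6, actc1 and rbpms2 the male heart was 2 to 4 times as high as the female heart. The brain-type creatine kinase gene ckb was the exception in that order, with 285 and 219 TPM in the heads, against 3235 and 2590.2 TPM in the hearts. The tropomyosin gene tpm4 had 149 and 195 TPM in the heads, against 1457 and 4181 TPM in the hearts. The essential light chain gene myl3 was the most abundant of the group, with 117 and 112 TPM in the heads, against 24802 and 28757 TPM in the hearts (log2 fold change -8.66, SE 1.80, adjusted p = 5.03e-05). The lactate dehydrogenase gene ldhb, whose product favours the use of lactate, had 813 and 701 TPM in the heads, against 4556 and 5240.1 TPM in the hearts. The other heart genes chosen by abundance were myl7, tnni3, tnnc1, tnnt2 and myh15.

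Of 26 tested contractile genes of heart muscle, 3 were head calls, 17 were heart calls and 6 did not pass. Their median log2 fold change was -4.81, against 0.14 over all genes tested. Head and heart calls were 13% and 1.42% of all genes tested, so the head count is near that share. The sarcomere scaffold gene actn2, an alpha actinin, had 57.3 and 71.3 TPM in female and male head, against 1001 and 2450.3 TPM in female and male heart. The muscle LIM protein gene csrp3 had 49.9 and 34.3 TPM in the heads, against 418 and 1551 TPM in the hearts. The membrane protein gene popdc2, whose product binds cyclic AMP, had 1.33 and 1.58 TPM in the heads, against 203 and 728 TPM in the hearts. The small heat shock protein gene hspb7 had 92.0 and 107 TPM in the heads, against 1405 and 1254 TPM in the hearts. Of the 17, it was the only member higher in female than in male heart. The 3 members called higher in head were myh7, myl2 and ankrd1. The slow myosin heavy chain gene myh7 had 149 and 390.0 TPM in the heads, against 0.2 and 0.36 TPM in the hearts (log2 fold change 8.84, SE 1.42, adjusted p = 4.73e-08). The light chain gene myl2, which in mammals marks the ventricle and slow muscle, had 61.5 and 70.1 TPM in the heads, against 0.74 and 1.09 TPM in the hearts. The stress-responsive gene ankrd1 had 105 and 143 TPM in the heads, against 4.62 and 3.76 TPM in the hearts. The titin cap gene tcap did not pass, at 3186 and 3781 TPM in the heads and 5638 and 13284 TPM in the hearts.

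Of 24 tested genes of cardiac calcium handling, rhythm and hormones, 3 passed as higher in head and 9 as higher in heart. The shares over all genes tested were 13% and 1.42%. The head count is near that share and is no result about this list. The sodium-calcium exchanger gene slc8a1, which removes calcium from the cell after each beat, had 17.3 and 20.5 TPM in female and male head, against 292 and 1815 TPM in female and male heart (log2 fold change -6.22, SE 1.43, adjusted p = 0.000346). The phospholamban gene pln, which restrains the calcium pump, had 40.1 and 77.9 TPM in the heads, against 194 and 1351 TPM in the hearts. The corin gene, whose product activates natriuretic peptides, had 1.82 and 2.53 TPM in the heads, against 6.4 and 85.9 TPM in the hearts. The ventricular type natriuretic peptide gene nppb had 4.11 and 3.17 TPM in the heads, against 765 and 2262 TPM in the hearts. The muscarinic receptor gene chrm2, through which the vagus nerve slows the heart in mammals, had 0.68 and 1.12 TPM in the heads, against 3.83 and 41.3 TPM in the hearts. Higher in head were the gap junction gene gja1, the potassium channel gene kcnj12 and the sarcolipin gene sln. Gja1 had 36.8 and 38.8 TPM in the heads, against 1.45 and 0.42 TPM in the hearts (log2 fold change 4.98, SE 1.16, adjusted p = 0.000413). The pacemaker channel gene hcn4 did not pass, at 0.29 and 0.55 TPM in the heads and 0.01 TPM in each heart.

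Of 24 tested cardiac transcription factor genes, 1 passed as higher in head and 11 as higher in heart, with a median log2 fold change of -2.54. Over all genes tested 13% and 1.42% passed. Without the female heart the counts were 2 and 18. Hand2, needed for the right ventricle in mammals, had 1.1 and 1.27 TPM in female and male head, against 24.4 and 191 TPM in female and male heart (log2 fold change -6.64, SE 1.28, adjusted p = 1.01e-05). Gata6 had 3.66 and 1.86 TPM in the heads, against 18.1 and 115 TPM in the hearts, and the muscle methyltransferase gene smyd1 had 14.6 and 18.1 TPM, against 66.5 and 247 TPM. In these 3 genes the male heart stood at least 2 log2 units above each of the other 3 libraries compared, yet the female heart still exceeded both heads. Tbx5 had 0.04 and 0.05 TPM in the heads, against 7.97 and 28.7 TPM in the hearts, and irx4, a ventricular factor in chick and mouse, had 0.89 and 0.96 TPM, against 9.84 and 59.3 TPM. The exception was isl1, a factor of heart progenitors and also of motor and sensory neurons, with 5.97 and 8.14 TPM in the heads, against 0.15 and 0.22 TPM in the hearts (log2 fold change 4.30, SE 1.51, adjusted p = 0.0341). The factor gene mef2c, which acts in all muscle, did not pass, at 137 and 213 TPM in the heads and 7.4 and 35.7 TPM in the hearts.

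The swap of muscle isoforms was followed in 22 pairs of paralogues, of which 18 had both genes tested. In 10 pairs the cardiac member was called higher in heart and its relative higher in head. Among them were the troponins I, T and C, the regulatory and essential myosin light chains, myosin binding protein C, myozenin, the voltage-gated calcium channels and lactate dehydrogenase. The cardiac member's share of its pair, by TPM, shows how complete the swap was. Lactate dehydrogenase did not change places, and ldhb was the larger part of its pair in all 4 libraries. It made up 91.6% and 75.2% in female and male head, against 99.8% and 99.9% in female and male heart. For troponin T the cardiac gene tnnt2 made up 0.0636% and 0.0445% of the pair in female and male head, against 99.9% and 100% in female and male heart. For the myozenins, which anchor the filaments at the Z disc, the cardiac gene myoz2 made up 7.64% and 7.79% in the heads, against 99.9% and 100% in the hearts. The cardiac myosin binding protein gene mybpc3 had 27.0 and 25.2 TPM in the heads, against 321 and 1184 TPM in the hearts, while its fast relative mybpc2 had 151 and 203 TPM in the heads, against 0.11 and 0.06 TPM in the hearts.

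In 5 pairs 1 member was called and in 3 none. The skeletal actin gene acta1 was among the highest transcripts of all 4 libraries, with 21627 TPM in female head and 37424 TPM in male head, and 30855 and 37597 TPM in the hearts (log2 fold change -1.06, SE 1.40, adjusted p = 0.722). The cardiac actin gene actc1 therefore made up 1.53% and 0.863% of the actin pair in the heads, against 13.4% and 22.9% in the hearts. Actin genes are near-identical in coding sequence, and their split is uncertain. For the calcium pumps the head side changed alone: atp2a1 had 1770.2 and 1850.2 TPM in the heads, against 2.25 and 9.85 TPM in the hearts, and atp2a2 had 56.4 and 75.9 TPM in the heads and 36.8 and 47.2 TPM in the hearts (log2 fold change -0.12, SE 0.98, adjusted p = 0.965). The same held for calsequestrin. Casq1, the skeletal form, had 337 and 566 TPM in the heads, against 0.1 and 0.24 TPM in the hearts, and casq2 had 2.44 and 4.95 TPM in the heads and 3.27 and 8.94 TPM in the hearts. Of the alpha actinins, actn3 had 901 and 1345 TPM in the heads and 74.7 and 351 TPM in the hearts and did not pass (adjusted p = 0.334). Muscle creatine kinase was tested without its paired mitochondrial form, and ckm had 23035 and 25309 TPM in the heads and 12327 and 17049 TPM in the hearts (adjusted p = 0.987).

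**Figure D2:**
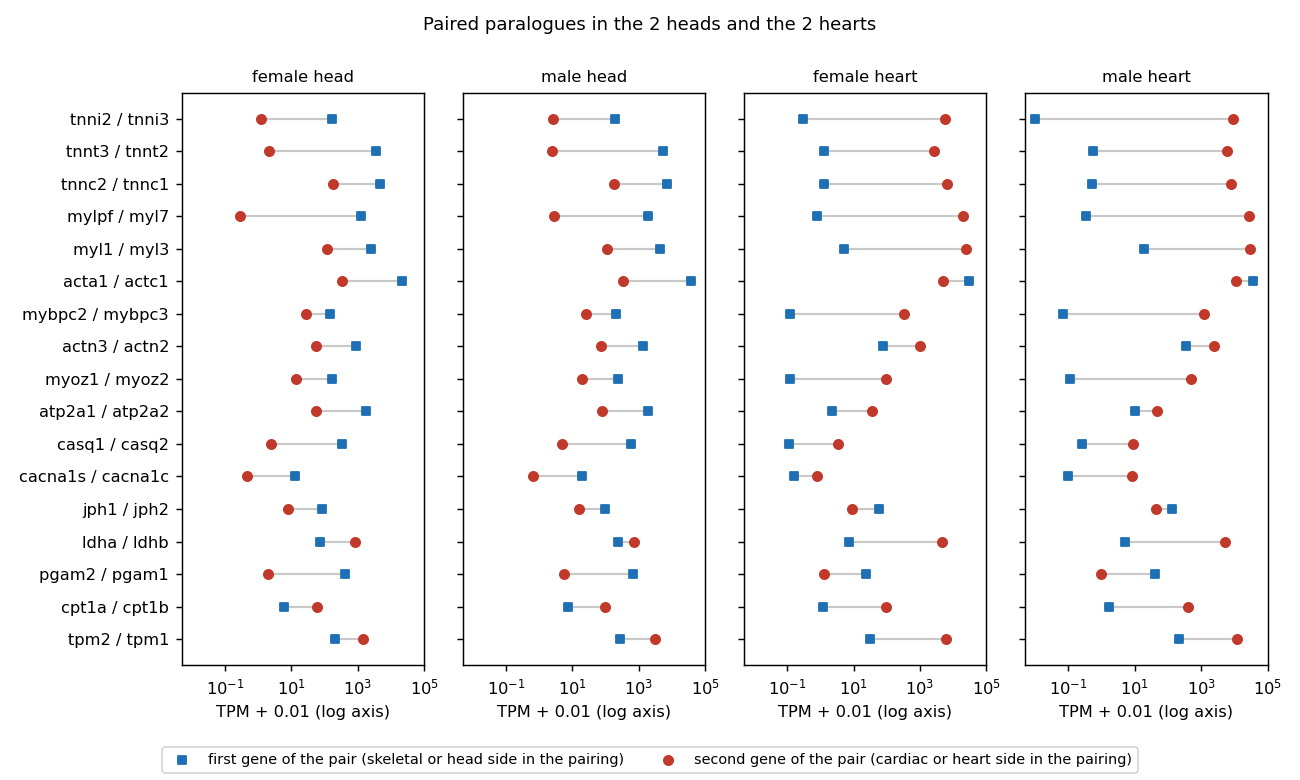
TPM (plus 0.01, log axis) of both genes of 17 of the 18 pairs with both tested, a panel for each library, blue squares for the skeletal or head-side gene and red circles for the cardiac or heart-side gene. The troponins, light chains, myosin binding protein C and myozenins change places between head and heart panels, while acta1 stays the higher actin in all 4 libraries.

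Genes of energy metabolism leaned towards heart, and few passed. Of 38 mitochondrial oxidation genes 3 were called higher in heart, the cytochrome oxidase subunit genes cox6a2 and cox7a1 and the complex III gene uqcrfs1. Cox7a1 had 60.6 and 50.3 TPM in female and male head, against 146 and 413 TPM in female and male heart (log2 fold change -2.94, SE 1.08, adjusted p = 0.0475). Uqcrfs1 had 112 and 111 TPM in the heads, against 503 and 501 TPM in the hearts. Of 24 genes of the citric acid cycle and its feeders 0 passed, and all 24 had a negative fold change under TMM, DESeq2's and TPM scaling, with a median of -1.67. The isocitrate dehydrogenase gene idh2 came closest among the named ones, at 502 and 611 TPM in the heads and 2776 and 3052 TPM in the hearts (log2 fold change -3.19, SE 1.22, adjusted p = 0.0599). Of 25 fatty acid genes 0 passed, and of 18 genes of ketone and branched chain amino acid oxidation 1 passed. It was the ketone-using enzyme gene oxct1, at 51.7 and 41.1 TPM in the heads, against 147 and 323 TPM in the hearts.

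These counts were larger with either heart alone and no sex term. With the male heart alone, edgeR called 36 of 38, 24 of 24, 20 of 25 and 17 of 18 members of these lists higher in heart, where 12.3% of all genes tested were. With the female heart alone it called 25, 15, 11 and 9, where 24.5% of all genes tested were. The spread of these fits comes from the heads, and the lone heart is assumed to vary like them. The size of the difference also depended on scaling: among genes of at least 10 TPM the median log2 fold change was -0.49 by TMM-scaled counts and 0.27 by log2(TPM + 1), a median gap of -0.77. Median fold changes of these lists are therefore lower by about that amount than the TPM values beside them show. For the citric acid cycle the median was -0.86 on the TPM scale.

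Glycolysis and glycogen genes went both ways, with 6 of 27 called higher in head and 2 higher in heart. The shares over all genes tested were 13% and 1.42%. The glycogen phosphorylase gene pygb had 533 and 814 TPM in female and male head, against 0.53 and 6.17 TPM in female and male heart (log2 fold change 8.08, SE 1.45, adjusted p = 1.48e-06). The phosphofructokinase gene pfkm had 257 and 275 TPM in the heads, against 14.6 and 7.0 TPM in the hearts. The fructose bisphosphatase gene fbp2 had 92.3 and 266 TPM in the heads, against 0.09 and 0.02 TPM in the hearts. Higher in heart were ldhb and the aldolase gene aldoc. Aldoc had 198 and 162 TPM in the heads, against 932 and 1246 TPM in the hearts (log2 fold change -3.39, SE 1.17, adjusted p = 0.0315). The muscle aldolase gene aldoa, at 7433 and 6926 TPM in the heads and 634 and 941 TPM in the hearts, did not pass.

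Skeletal muscle genes were called higher in head in large shares. Of 20 fast fibre genes 15 were called higher in head and 0 higher in heart, with a median log2 fold change of 8.86. The 5 that did not pass were acta1, ckm, actn3, tpm2 and the muscle glycogen phosphorylase gene pygm, which had 23.1 and 28.3 TPM in the heads and 25.7 and 122 TPM in the hearts. Myosin heavy chain myh13, known from eye and larynx muscle in mammals, had 471 and 440 TPM in the heads, against 0.21 and 0.01 TPM in the hearts, and the mammalian fast fibre myosin gene myh4 was listed at no more than 0.02 TPM in any of the 4. Of 17 genes of the nerve-muscle junction and its excitation, 10 were called higher in head. The acetylcholine receptor subunit gene chrna1 had 9.62 and 16.2 TPM in the heads and was listed at 0 in both hearts. The calcium release channel gene ryr1 had 12.8 and 13.1 TPM in the heads, against 0.01 and 0 TPM in the hearts.

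Of 15 muscle regulatory factor genes 9 were called higher in head, and tcf21 was called higher in heart. The master factor myod1 had 51.1 and 125 TPM in female and male head, against 0.09 and 0.08 TPM in female and male heart. The satellite cell gene pax7 had 2.24 and 2.93 TPM in the heads, against 0.03 and 0.05 TPM in the hearts. The jaw muscle factor tbx1 was also called, with 14.1 and 20.7 TPM in the heads, against 0.54 and 1.29 TPM in the hearts. Tcf21, a factor of epicardium that also acts in jaw muscle precursors, had 0.72 and 0 TPM in the heads, against 3.17 and 12.4 TPM in the hearts.

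Neural genes were called higher in head in large shares, where 13% of all genes tested were. The head counts were 22 of 28 for synapse and neuron, 20 of 27 for transmitter receptors, 22 of 30 for neuropeptides, 8 of 20 for transmitter enzymes and transporters, and 9 of 19 for voltage-gated channels. None of the 5 neural lists had a heart call. Only 1.42% of all genes tested were heart calls, so this absence is no result about these lists. Without the female heart 13 transmitter enzyme and 14 channel genes were called higher in head, and 1 and 2 higher in heart. The SNARE gene snap25, which fuses vesicles with the membrane, had 469 and 504 TPM in female and male head, against 2.31 and 11.4 TPM in female and male heart. The neurofilament gene nefm had 92.1 and 93.1 TPM in the heads, against 0.75 and 1.54 TPM in the hearts. The genes of the partners of Snap25, vamp2 and stx1a, did not pass, and vamp2 had 458 and 449 TPM in the heads and 50.8 and 164 TPM in the hearts. Synapse genes were detectable in the hearts, and more so in the male: 28 of the list's genes reached 1 TPM in each head, against 10 in female heart and 15 in male heart. For 14 of the 28 tested members the female heart was at least 2 log2 units below each of the other 3 libraries compared.

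Fast excitatory, inhibitory and peptide signalling were each represented. The AMPA glutamate receptor gene gria1 had 40.8 and 52.4 TPM in female and male head, against 0.06 and 0.21 TPM in female and male heart (log2 fold change 7.32, SE 1.35, adjusted p = 2.98e-06). The glycine receptor subunit gene glrb had 42.4 and 49.5 TPM in the heads, against 1.15 and 0.92 TPM in the hearts. The glutamate uptake gene of glia slc1a3 had 94.4 and 69.7 TPM in the heads, against 0.13 and 0.05 TPM in the hearts. The vesicular GABA transporter gene slc32a1 had 42.7 and 46.3 TPM in the heads, against 2.43 and 0.15 TPM in the hearts. Among peptides, galanin (gal) had 143 and 135 TPM in the heads, against 0.12 and 0 TPM in the hearts, and the carboxypeptidase gene cpe, which trims peptide precursors, had 412 and 421 TPM, against 0.62 and 1.36 TPM. The hormone genes avp and oxt had 38.1 and 25.1 TPM and 6.16 and 9.88 TPM in the heads and were listed at 0 in both hearts. Somatostatin (sst) did not pass, at 71.9 and 66.1 TPM in the heads and 10.6 and 24.7 TPM in the hearts. Glutamine synthetase (glul) went against the list, at 83.3 and 71.6 TPM in the heads, 448 TPM in female heart and 16.3 TPM in male heart, and did not pass.

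Of 18 myelin and glia genes 10 were called higher in head. The peripheral myelin gene mpz had 137 and 210.1 TPM in female and male head, against 1.01 and 3.78 TPM in female and male heart (adjusted p = 8e-05). The oligodendrocyte factor gene olig1 had 4.3 and 2.83 TPM in the heads and was listed at 0 in both hearts.

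Sense organs gave large shares of head calls, where 13% of all genes tested were head calls. They had no heart call, but only 1.42% of all genes tested were heart calls, so this absence is no result. Of the retina list 24 of 29 genes passed, of the lens list 13 of 16, of the olfactory list 10 of 14 and of the inner ear list 7 of 18, where 13 passed without the female heart. The rod arrestin gene sag had 138 and 95.1 TPM in female and male head, against 0.13 and 0.07 TPM in female and male heart. The cone transducin gene gnat2 had 53.1 and 46.0 TPM in the heads, against 1.71 and 1.76 TPM in the hearts. The retinoid isomerase gene rpe65, of the pigment epithelium, had 54.5 and 53.4 TPM in the heads, against 0.43 and 0.89 TPM in the hearts. Both photoreceptor types and their support layer were thus measured in both heads. The lens crystallin gene cryba1 had 157 and 158 TPM in the heads, against 0.06 and 0 TPM in the hearts. In the olfactory list the sensory channel gene cnga2 had 18.3 and 14.3 TPM in the heads, against 0.02 and 0 TPM in the hearts. Hair cell genes were low in every library, and the synaptic gene of hair cells otof had 1.88 and 2.37 TPM in the heads, against 0.02 and 0.05 TPM in the hearts. Of 6 taste and tongue genes 1 passed, the proton channel gene otop1, at 0.62 and 0.54 TPM in the heads and listed at 0 in both hearts, and 2 passed without the female heart.

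Of 14 pituitary genes with a row in the data 9 were tested, and 8 of these were called higher in head. The median level of the list was 0 TPM in both hearts, so the filter favoured these calls. The shared glycoprotein hormone subunit gene cga had 287 and 124 TPM in female and male head, against 1.71 and 2.76 TPM in female and male heart (log2 fold change 5.56, SE 1.24, adjusted p = 0.000196). The prolactin gene prl.1 had 25.5 and 20.4 TPM in the heads and was listed at 0 in both hearts. The growth hormone gene gh1 had 12.9 and 2.31 TPM in the heads and was also listed at 0 in the hearts. In the list of thyroid, parathyroid and thymus, 6 of 15 were called higher in head. The thymus epithelium factor foxn1 had 7.13 and 11.2 TPM in the heads, against 0.01 and 0.03 TPM in the hearts. The V(D)J recombinase gene rag1, active in developing lymphocytes, had 0.1 TPM in female head and 16.2 TPM in male head and was listed at 0 in both hearts. Thyroglobulin (tg) did not pass and had no more than 0.13 TPM in any of the 4.

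Skin genes were high in both heads. Of 26 tested epidermis genes 16 were called higher in head, and of 18 skin gland, mucus and ionocyte genes 14. The basal layer factor gene tp63 had 80.3 and 135 TPM in female and male head, against 0.05 and 0 TPM in female and male heart. The desmosome gene pkp1 had 219 and 204 TPM in the heads, against 2.43 and 0.1 TPM in the hearts. The sodium channel gene scnn1a, by which frog skin takes up salt, had 167 and 230.3 TPM in the heads, against 0.06 and 0.41 TPM in the hearts (log2 fold change 9.32, SE 1.41, adjusted p = 4.86e-09). The secretory cell gene agr3 had 113 and 83.4 TPM in the heads and was listed at 0 in both hearts. The ionocyte factor gene foxi1 had 15.5 and 27.3 TPM in the heads, against 0.29 and 0.11 TPM in the hearts. Its relative foxi2 went the other way and was the list's single heart call, at 14.6 and 0.11 TPM in the heads, 272 TPM in female heart and 0.54 TPM in male heart, so the call was carried by the female heart.

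Of 28 cartilage, bone and tooth genes 16 were called higher in head. The enamel matrix gene ambn had 554 and 335 TPM in female and male head, against 0.15 and 0.04 TPM in female and male heart. Its partners amelx and odam were also called, with 47.5 and 34.6 TPM of odam in the heads, against 0.06 and 0 TPM in the hearts. The cartilage matrix gene matn1 had 60.1 and 28.9 TPM in the heads, against 0.29 and 0.7 TPM in the hearts. The cartilage factor sox9 had 156 and 139 TPM in the heads, against 12.6 and 9.59 TPM in the hearts (log2 fold change 2.99, SE 1.03, adjusted p = 0.0311). The matrix gene sparc did not pass, at 1682 and 882 TPM in the heads and 739 and 1606 TPM in the hearts. Of 15 tendon and joint genes 4 passed, all higher in head, among them the tendon gene tnmd, at 5.52 and 3.69 TPM in the heads and listed at 0 in both hearts.

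Genes that pattern the embryonic head were still differently expressed between the adult organs. Of 43 head patterning factor genes 29 were called higher in head and 1, hand2, higher in heart. Msx2 had 52.5 and 55.3 TPM in female and male head, against 0.3 and 0.26 TPM in female and male heart (log2 fold change 7.32, SE 1.32, adjusted p = 1.57e-06). The eye and brain factor pax6 had 14.5 and 13.1 TPM in the heads and was listed at 0 in both hearts. Otx1 and zic2 did not pass, and in both the female heart was the highest library. The gene otx1 had 12.5 and 10.2 TPM in the heads, 65.2 TPM in female heart and 0.09 TPM in male heart, while its relative otx2 had 27.5 and 29.0 TPM in the heads, against 0.17 and 0 TPM in the hearts and was called. Of 16 tested Hox genes 1 passed as higher in head, where 13% of all genes tested did. It was hoxc5, at 0.35 and 2.09 TPM in the heads and listed at 0 in both hearts.

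Of 38 Wnt, FGF, BMP and hedgehog ligand genes 10 were called higher in head and 1 higher in heart. The shares over all genes tested were 13% and 1.42%. Wnt10b had 29.0 TPM in each head, against 0.03 and 0.17 TPM in female and male heart (log2 fold change 7.51, SE 1.42, adjusted p = 6.39e-06). Sonic hedgehog (shh) had 7.14 and 7.97 TPM in the heads, against 0 and 0.34 TPM in the hearts. The heart ligand gene bmp10, which supports growth of the ventricle wall in mammals, had 0.21 and 0.18 TPM in the heads, against 2.54 and 29.5 TPM in the hearts (log2 fold change -6.25, SE 1.32, adjusted p = 7.02e-05). The ligand gene bmp2 had 32.3 and 23.9 TPM in the heads, 141 TPM in female heart and 13.9 TPM in male heart and did not pass.

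Some lists with 0 heart calls had a few members called higher in heart without the female heart. In each of the lists below the share was smaller than among all genes tested in that fit. The counts are therefore no result about these lists. There were 2 in each of the nerve-muscle junction and inner ear lists, and 1 in each of the fast fibre, retina, olfactory, pigment cell, cartilage, motile cilia and liver lists.

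**Figure D3:**
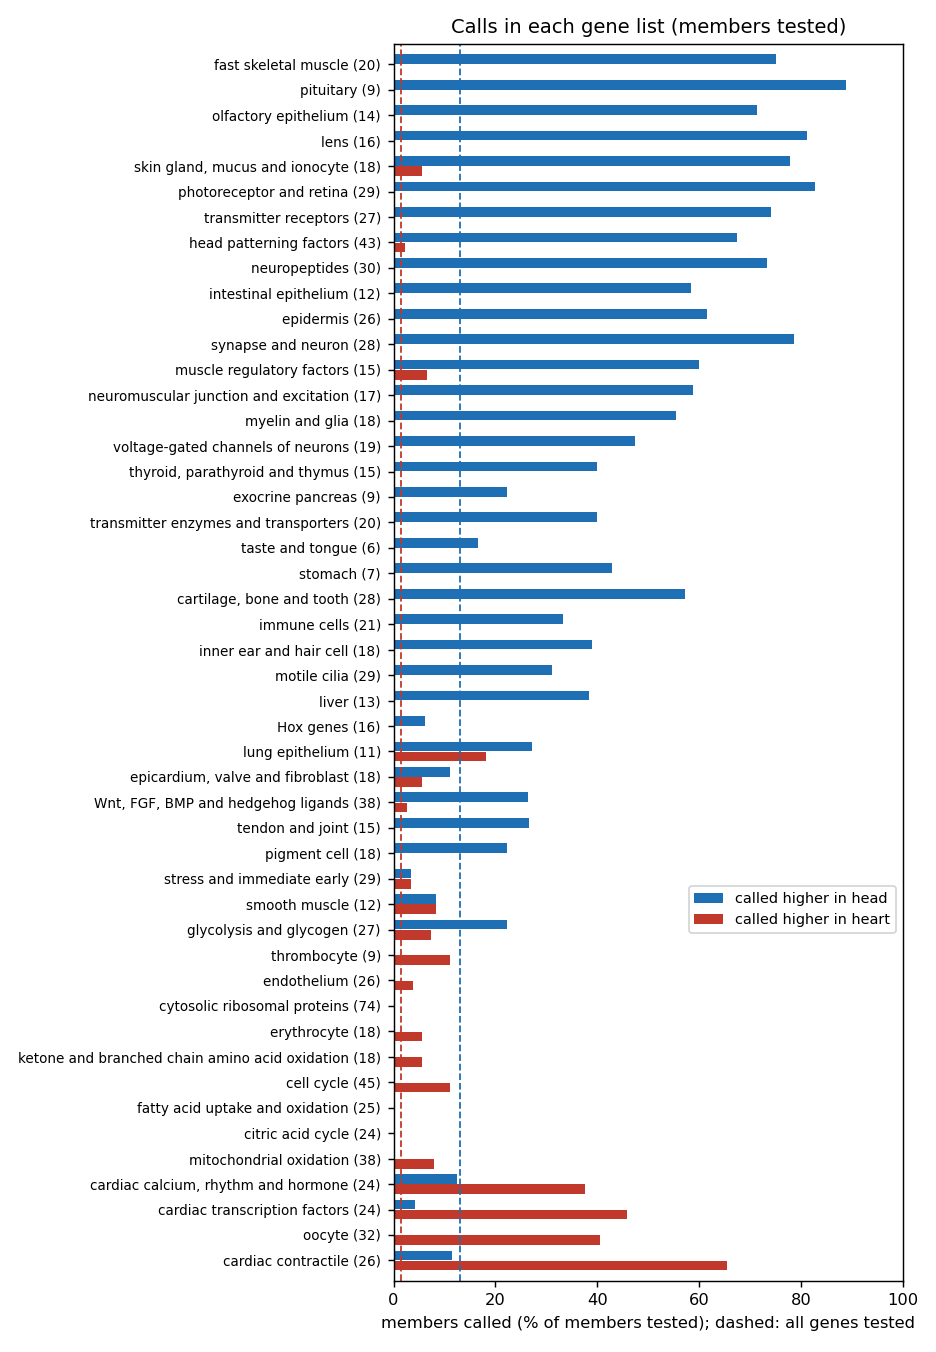
Share of the tested members of each of 48 gene lists called higher in head (blue, upper bar) and higher in heart (red, lower bar), with the number tested in brackets and dashed lines at the 13% and 1.42% of all genes tested. The sense organ, pituitary, neural and skin lists extend far past the head line, and the cardiac and oocyte lists past the heart line.

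Of the lists for cell types that both organs share, the endothelium list had a smaller share of calls than the 14.4% of all genes tested, and the fibroblast and smooth muscle lists were near it. Of 26 endothelium genes 1 passed, the co-receptor gene eng, with 3.76 TPM in female head and 6.31 TPM in male head, against 10.5 and 57.1 TPM in female and male heart. The vascular cadherin gene cdh5 had 3.54 and 5.02 TPM in the heads, 2.05 TPM in female heart and 16.5 TPM in male heart and did not pass. The 2 hearts pointed in opposite directions for this list. Its median head minus heart difference was 0.97 log2 CPM in the female pair and -1.22 in the male pair. Of the 26 genes 15 had opposite signs in the sexes or no difference in 1 sex, against 31.8% of all genes tested. Of 18 epicardium, valve and fibroblast genes 2 were called higher in head, tnc and thy1, and 1 higher in heart, tcf21, with 3 in each direction without the female heart. Of 12 smooth muscle genes 1 passed in each direction, or 3 in head and 1 in heart without the female heart. The myosin kinase gene mylk had 10.6 and 12.3 TPM in the heads, against 0 and 0.11 TPM in the hearts, and the coactivator gene myocd had 1.16 and 2.08 TPM, against 4.81 and 25.6 TPM.

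The summed level of red cell genes was lowest in the male head. The median level of the list was 45.2 and 11.5 TPM in female and male head, against 10.9 and 41.6 TPM in female and male heart. The globin gene hbg1 had 14977 TPM in female head and 996 TPM in male head, 6716 TPM in female heart and 8216 TPM in male heart, and did not pass. The genes of the red cell list summed to 18550.0 and 1539 TPM in female and male head, against 7913 and 11680.0 TPM in female and male heart. Of 18 tested red cell genes 1 passed, or 2 without the female heart. It was the membrane ammonium channel gene rhag, at 7.61 and 4.97 TPM in the heads, against 14.3 and 53.6 TPM in the hearts. Of 9 thrombocyte genes 1 passed as higher in heart, or 2 without the female heart, and it was thpo, at 0.68 and 1.35 TPM in the heads, against 5.71 and 28.3 TPM in the hearts. Of 21 immune genes 7 were called higher in head, where 13% of all genes tested were, and fewer without the female heart. All 7 were higher in male than in female head. The antigen presentation gene cd74 had 291 and 571 TPM in female and male head, against 16.4 and 48.4 TPM in the hearts, and the granule peroxidase gene mpo had 63.7 and 158 TPM, against 0.99 and 3.19 TPM.

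Some digestive, liver and lung genes were called. The counts higher in head were 7 of 12 intestinal, 3 of 7 stomach, 2 of 9 exocrine pancreas, 5 of 13 liver and 3 of 11 lung epithelium genes. Among all genes tested 13% were head calls. Without the female heart 4 intestinal and 0 pancreas genes were called. The peptide transporter gene slc15a1 had 401 TPM in female head and 1.14 TPM in male head, against 0.07 and 0.22 TPM in female and male heart, so its call was carried by the female head. The part of the digestive transcripts of that library in these counts was not tested. Transferrin (tf) had 534 and 810.2 TPM in the heads, against 0.86 and 3.65 TPM in the hearts (log2 fold change 7.73, SE 1.37, adjusted p = 1.13e-06). The 25 genes of the liver list summed to 915.2 and 1154 TPM in the heads, against 14.7 and 17.3 TPM in the hearts, with 12 and 11 genes at 1 TPM or more in the female and male heads. The retinol carrier gene rbp4, also called, had 299 and 176 TPM in the heads, against 0.16 and 0.24 TPM in the hearts. Among genes that define liver, the fibrinogen gene fgb had no more than 0.15 TPM and the urea cycle gene cps1 no more than 0.03 TPM in any of the 4. The lung list held 2 heart calls. The surfactant protein gene sftpb had 2.41 and 0.61 TPM in the heads, against 21.7 and 10.3 TPM in the hearts and 6437 TPM in female lung, while hopx, which heart muscle also expresses, had 31.1 and 41.2 TPM in the heads, against 200.3 and 809 TPM in the hearts.

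Of 29 motile cilia genes 9 were called higher in head, and of 18 pigment cell genes 4, where 13% of all genes tested were. Without the female heart more members of both lists were called higher in head, and so were more of all genes tested. The cilia factor gene foxj1 had 2.08 TPM in female head and 1.8 TPM in male head and was listed at 0 in both hearts. The melanosome gene pmel had 115 and 93.1 TPM in the heads, 484 TPM in female heart and 2.21 TPM in male heart, and did not pass. Sox10, a factor of pigment cells and glia, was called, at 27.7 and 31.7 TPM in the heads, against 0.53 and 1.74 TPM in the hearts. Of 74 cytosolic ribosomal protein genes 0 passed, 67 had a negative fold change under TMM scaling and 29 on the TPM scale, and 61 were called higher in heart with the male heart alone and 1 with the female heart alone. Of 29 stress and immediate early genes 1 passed in each direction, or 5 in head and 8 in heart without the female heart. The small heat shock protein gene hspb1 had 204 and 175 TPM in the heads, against 1358 and 3208 TPM in the hearts, and klf4 had 32.6 and 60.4 TPM, against 1.73 and 5.21 TPM.

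**Figure D4:**
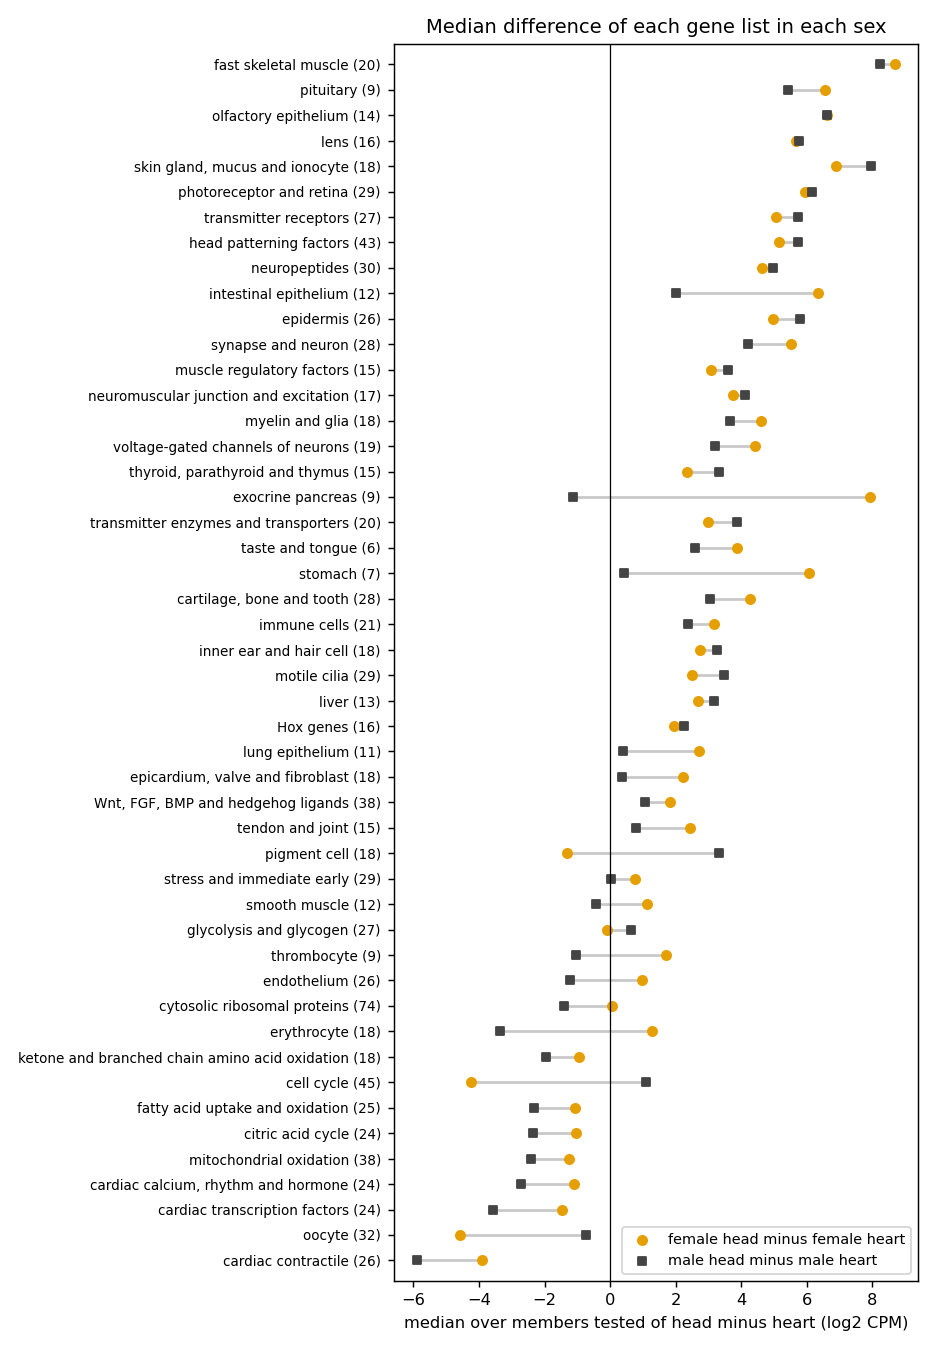
Median head minus heart difference in log2 CPM over the tested members of each gene list, orange circles for the female pair and black squares for the male pair, with lists ordered by fitted median. The symbols lie close together for the sense organ lists and on opposite sides of 0 for the cell cycle, red cell, exocrine pancreas and pigment cell lists.

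The female heart was the library that most often stood alone. A gene was taken as carried by a library when its log2 CPM there was at least 2 units (4-fold) above the highest or below the lowest of the other 3. By this measure the female heart stood above the others at 1858 genes, 9.64% of those tested, and below them at 1792, or 9.3%. The numbers above and below were 568 (2.95%) and 1002 (5.2%) for male heart, 100 (0.519%) and 19 (0.0986%) for female head, and 121 (0.628%) and 90 (0.467%) for male head. Among called genes the female heart carried 459, of which 103 were heart calls with the female heart high and 356 head calls with the female heart low. No library carried 1885 of the head calls and 68 of the heart calls.

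**Figure D5:**
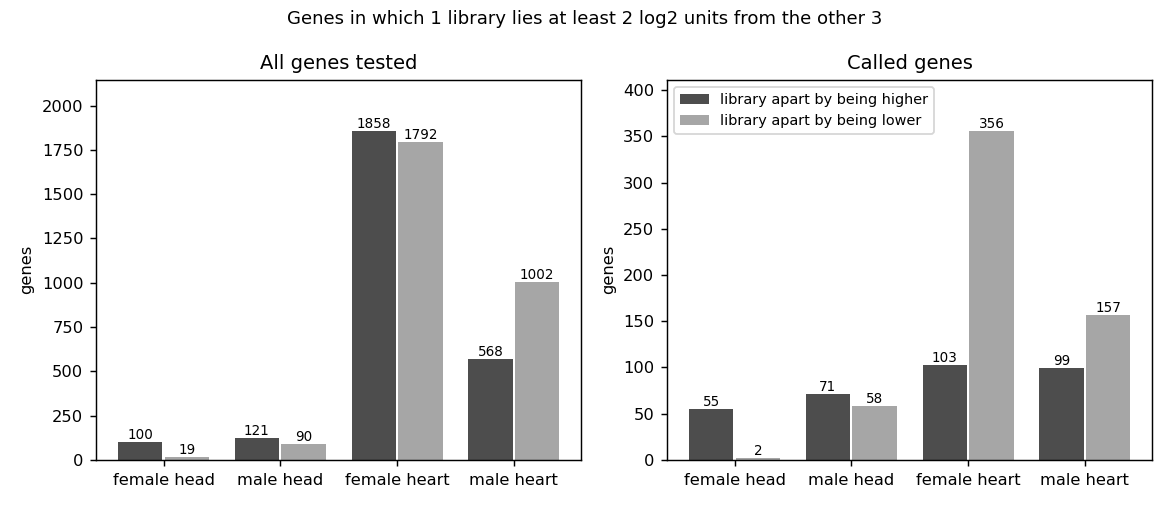
Number of genes in which 1 library lies at least 2 log2 units above (dark) or below (light) all of the other 3, for all 19276 genes tested (left) and for the 2784 called (right). The female heart bars are the tallest in both panels, with 1858 and 1792 genes tested and 103 and 356 called.

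The 103 heart calls carried by the female heart were led by genes of eggs and cell division. The cyclin gene ccna1 had 163 TPM in female head and 0.52 TPM in male head, 5094 TPM in female heart and 3.01 TPM in male heart (log2 fold change -4.58, SE 1.33, adjusted p = 0.00705). The mitotic cyclin gene ccnb1 had 71.1 and 0.21 TPM in female and male head, 2810.1 TPM in female heart and 3.19 TPM in male heart. The egg coat gene zp4 had 56.5 and 0.1 TPM in the heads, 1366 TPM in female heart and 0.53 TPM in male heart. Outside the 10 most abundant of the 103, the oocyte linker histone gene h1foo had 15.9 and 0.07 TPM in the heads, 626 TPM in female heart and 0.58 TPM in male heart. In each the 2 female libraries were high and both male libraries were near 0. The 10 also held mkrn3, zar2, hist1h2am, hist1h2aa, btg4, spdyc and zfp36l2.2, and histone levels are uncertain because the genes have near-identical copies.

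Of the 103, 96 met the agreement measure in both sexes. The male difference rested on low levels: the median of the 103 was 0.05 TPM in male head and 0.34 TPM in male heart. Zp4, for example, had 3 counts in male head and 21 in male heart. Meeting the measure therefore does not show the level of the female heart in the male. Most of the 103 were no longer called when the female heart was left out. They were chosen because that library stood highest, so this loss follows largely from the choice. It is no separate evidence about the female heart. All 13 called oocyte genes, of 32 tested, and all 5 called cell cycle genes, of 45 tested, were among those carried by it. Whether called or not, 44 of the 45 cell cycle genes stood highest by that margin in the female heart. The median head minus heart difference of the oocyte list was -4.575 log2 CPM in the female pair and -0.724 in the male pair. For the cell cycle list it was -4.24 and 1.09. Each pair is 1 library against 1, so the difference between the sexes was not tested. The 103 genes together took 0.165% and 0.0102% of transcripts in female and male head, 3.7% in female heart and 0.016% in male heart. In libraries outside the comparison they took 5.77% in ovary, 2.6% in female lung and 0.38% in testes. Of the other 5 libraries the highest level was in female lung for 57 of the 103, in ovary for 40 and in testes for 6.

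Of the 1858 genes carried high by the female heart, 103 were called, all higher in heart. Of all genes tested 1.42% were heart calls. Most of the 1858 were not called, as with all genes tested. The 1858 such genes took 3.01% and 2.02% of transcripts in the female and male heads, against 22.6% in female heart and 1.07% in male heart. Outside the comparison they took 34.0% in ovary and 19.6% in female lung. The cyclin gene ccnb1.2 had 181 and 25.7 TPM in female and male head, 4418 TPM in female heart and 3.6 TPM in male heart (adjusted p = 0.67). The methyltransferase gene prmt1 had 309 and 278 TPM in the heads, 3209 TPM in female heart and 278 TPM in male heart. The oocyte elongation factor gene eef1a1o had 37.7 and 2.44 TPM in the heads, 1875 TPM in female heart and 1.38 TPM in male heart. The others of the most abundant 10 that were not called were cldn6.1, ccnb2, plk1 and gmnn. Which cells in the female heart sample held these transcripts was not tested.

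The head calls carried by the female heart were the 356 in which it was lowest. All 356 agreed in both sexes, which the fit favours, so this is no separate support. Most were also called without the female heart. That fit uses the same remaining libraries, so this is no separate support either. Of the genes named above, snap25, myl1, atp2a1, pygb, mpz, scnn1a, tf, sox10 and mylk are among the 356. The collagen gene col12a1 had 37.1 and 43.4 TPM in female and male head, against 0.65 and 2.37 TPM in female and male heart. The receptor gene kit had 21.3 and 28.6 TPM in the heads, against 0.35 and 3.59 TPM in the hearts, and both hearts lay below both heads in each of these genes.

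Of the 274 heart calls, 160 were lower in female than in male heart by log2 CPM and 154 by TPM, with a median female minus male heart difference of -1.15 log2 CPM. All 160 were among the 171 calls not carried by the female heart. Setting aside the 103 genes in which the female heart was highest favours this direction, so the values of the 171 genes are a description. Between the heads those 171 genes had a median female minus male difference of -0.05 log2 CPM. Between the hearts it was -2.19 log2 CPM, against -0.05 over all genes tested. Together they took 0.887% and 0.931% of transcripts in female and male head, against 14.9% in female heart and 22.6% in male heart. The male to female heart ratio of TPM had a median of 2.51 over the 17 called contractile genes, with a range of 0.893 to 8.32. It was 6.96 over the 9 called calcium, rhythm and hormone genes (1.49 to 13.4) and 3.72 over the 11 called transcription factor genes (2.26 to 7.82). The male heart itself carried 99 heart calls, among them rbpms2, slc8a1, csrp3, pln and mybpc3. The part of the oocyte and cell cycle transcripts of the female heart in these differences was not tested.

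The female head stood above the other 3 libraries at 55 head calls and the male head at 71. The female head stood below them at 2 heart calls and the male head at 58. A gene can be carried high by a library and low by another, so these counts overlap with those of the hearts. The gap junction gene gjb2 had 302 TPM in female head and 53.6 TPM in male head, against 0.81 and 2.28 TPM in female and male heart. The mast cell tryptase gene tpsab1 had 156 and 27.7 TPM in female and male head, against 0.07 and 0 TPM in the hearts. In male head the epithelial immunoglobulin receptor gene pigr had 86.1 TPM, with 15.6 TPM in female head, against 0.04 and 0.12 TPM in female and male heart. The eosinophil peroxidase gene epx had 69.5 TPM in male head and 15.8 TPM in female head, against 0.2 and 1.86 TPM in female and male heart. The T cell receptor gene trac had 64.5 TPM in male head and 4.87 TPM in female head, against 0.32 and 2.48 TPM in female and male heart. The others named by abundance were xt6l, slc15a1 and klk15 for female head and xa-1 and crp.2 for male head.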

How the data were processed

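RNA was extracted with Qiagen kits and mRNA libraries were built with Kapa reagents, per the labels' protocols. The authors deposited a table of counts and a table of TPM, and the submitters' processing notes name RSEM 1.3 and deepTools. The whole-number deposited counts were taken for rounded expected counts, since 1272 cells pair a count of 0 with a TPM above 0. The deposited TPM values sum to 1000000 per library with 2 decimals. Which aligner, build and annotation were used is not given in the sources used here. No coordinates or sequences are therefore shown. Of 30330 named rows 15173 had a symbol, and 14553 symbols matched RefSeq's UCB_Xtro_10.0 table, used for names only. The row without a gene name (0.587% to 1.78% of counts in the 4 libraries) was left out, and no deposited column was left unused.

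Counts were tested in R 4.3.3 with edgeR 4.0.16 (quasi-likelihood F test, TMM factors, default filter by tissue) with terms for sex and tissue, checked on simulated data. This leaves 1 residual degree of freedom, which is the tissue by sex interaction. The simulated data had a fixed spread and no difference between the sexes. They therefore do not check the fit under the variation seen between these libraries. SEs were derived from the F statistic. Log2 CPM used a prior count of 2. Libraries were grouped by label. Replicate numbers follow the listing order and pair nothing. Counts of the 2 heads and of the 2 hearts differed beyond sampling noise (chi-square per degree of freedom 101 and 994), so all libraries were kept. The deviations of the female head and female heart from their tissue means correlated at 0.444 across genes.

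The comparison and the 48 gene lists (1044 distinct symbols tested) were chosen with earlier results of these data known, and some symbols stand in more than 1 list. Genes named are, by rule, the 12 most abundant per direction with at least 3 log2 units in both sexes, the most abundant carried by each library, the 3 most abundant called members per list and direction, and all paralogue pairs. Others were chosen after their values were seen. Alternatives were another scaling, DESeq2 1.42.0, limma 3.58.1 on log2(TPM + 1) and log2(TPM + 0.1), other filters (at least 1 count in all, or 50 counts in 2 libraries), all 9 libraries, no sex term and leaving out each library. Genes with near-identical copies have uncertain levels. Some genes that the rule names, and 1 paralogue pair, are not reported here.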

Additional observations from a re-analysis of the deposited data

Results flagged for a closer look

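In the results below the female pair and the male pair pointed in opposite directions. Each is the head minus heart difference in log2 CPM, positive when higher in head. Each pair is 1 library against 1, so the difference between the sexes was not tested.

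The cell cycle list (45 genes) had a median of -4.24 in the female pair and 1.09 in the male pair. The pigment cell list (18 genes) had -1.33 and 3.31 in the female and male pairs, and the glycolysis and glycogen list (27 genes) -0.09 and 0.65. The other lists were positive in the female pair. The exocrine pancreas list (9 genes) had 7.94 in the female pair and -1.14 in the male pair, and the erythrocyte list (18 genes) had 1.28 and -3.37. The thrombocyte list (9 genes) had 1.70 and -1.03, the smooth muscle list (12 genes) 1.12 and -0.43, and the endothelium list (26 genes) 0.97 and -1.22. The ribosomal protein list (74 genes) had 0.064 in the female pair and -1.39 in the male pair.

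Of the paralogue pairs, 3 genes were opposed in the same way, and none of them was called. Tpm2 had 2.11 in the female pair and -0.75 in the male pair. Ckm had 0.30 in the female pair and -0.42 in the male pair, and atp2a2 had 0.057 and -0.29.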

How the results depend on the processing

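The replicate numbers pair nothing, so sex was the block. With no replicate block all 6 counts (calls, calls in each direction, agreeing calls in each direction and calls carried by the female heart) were 0, and tpm2 turned to -0.052. The count of heart calls (274) was 558 with DESeq2, 84 with limma on log2(TPM + 1) and 161 with limma on log2(TPM + 0.1), and the count of agreeing heart calls (267) was 518, 77 and 146 in these fits and 162 with agreement taken on log2(TPM + 1). The calls carried by the female heart (459) numbered 851 at 1 log2 unit, 186 at 3 and 122 on log2(TPM + 1). Under every other alternative that keeps the 4 libraries and the sex term, these counts were within 1.5 times the reported ones, and DESeq2's size factors shared 2764 of the 2784 calls. Head calls were 90.2% of all calls, 82.7% with DESeq2 and 96.7% and 95.1% with limma. Leaving out each library gave 449 to 11227 calls, 445 to 6506 higher in head, 4 to 4721 higher in heart, 437 to 4466 and 4 to 1151 agreeing in head and in heart, and 24 to 3305 carried by the female heart. Of these calls 57.9% to 99.1% were higher in head. These fits have no sex term, and of 96 counts of calls per list and direction 41 to 48 stayed within 1.5 times. When a head was left out, most of the counts that stayed were 0 with and without it. They therefore do not show that calls in the lists held. Without the female heart the sign of 21 named genes turned. Of these 13 were called, and their log2 fold changes over these fits ran from -12.89 to 3.81 for ccna1, -13.33 to 2.54 for ccnb1, -15.18 to 4.15 for mkrn3, -10.20 to 2.75 for zar2, -11.45 to 4.34 for hist1h2am, -13.32 to 4.79 for zp4, -15.95 to 5.35 for hist1h2aa, -10.35 to 3.76 for btg4, -13.38 to 3.94 for spdyc, -16.54 to 3.096 for zfp36l2.2, -10.66 to 2.82 for foxi2, -12.64 to 2.83 for h1foo and -14.16 to 5.88 for birc5.1. Genes that were not called also turned without it: ccnb1.2 ran from -7.08 to 3.89, cldn6.1 from -6.28 to 4.56, ccnb2 from -9.45 to 4.12, plk1 from -7.65 to 3.68, gmnn from -5.76 to 4.32 and eef1a1o from -9.21 to 3.47. In these or other such fits rpl7 ran from -0.19 to 0.75, rps6 from -0.69 to 0.40, atp2a2 from -0.47 to 0.30, jph1 from -1.51 to 0.059, ckm from -0.46 to 0.38 and tpm2 from -0.90 to 2.33. On log2(TPM + 1) and log2(TPM + 0.1) in limma, rps6 had 0.62 and 0.63, atp2a2 0.64 and 0.65, jph1 0.048 and 0.05, and ckm 0.74 in both. Ckm had 0.036 with no filter, 0.005 with at least 50 counts and 0.033 with all 9 libraries. The cause of these changes was not tested. Of 201 named genes 198 kept their call and direction with DESeq2's size factors and 158 with limma on log2(TPM + 1).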

Other observations

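Genes on which the sexes were opposed by at least 1 log2 unit each numbered 1323 of 19276 tested, or 6.86%. In 541 of them the female pair was higher in head and the male pair higher in heart, and in 782 the reverse. The first group held 9 of 18 red cell genes, 5 of 9 exocrine pancreas genes and 3 of 7 stomach genes. The second held 24 of 45 cell cycle genes and 8 of 18 pigment cell genes. The genes below are among the 8 most abundant of each group, chosen after their values were seen. Apart from nanos1, none was called.

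In the first group the connective tissue growth factor gene ctgf had 103 and 184 TPM in female and male head, 35.1 TPM in female heart and 630.1 TPM in male heart. The chitinase gene chia had 1543 and 1.33 TPM in female and male head, 1.5 TPM in female heart and 3.78 TPM in male heart, with 50276 TPM in GI tract. The haemoglobin gene hba1 had 1236 and 91.5 TPM in the heads, 353 TPM in female heart and 835 TPM in male heart. In the second group the polyamine enzyme gene sat1 had 274 and 251 TPM in the heads, 1454 TPM in female heart and 47.0 TPM in male heart, with 1408 TPM in ovary and 1028 TPM in lung. The neural progenitor factor gene sox3 had 38.8 and 4.88 TPM in the heads, 1325 TPM in female heart and 0.87 TPM in male heart, with 74.6 TPM in ovary and 671 TPM in lung. Of the 5 called genes with opposite signs in the sexes, or no difference in 1 sex, 1 has a symbol. It is the germ plasm gene nanos1, at 15.0 TPM in female head and 259 TPM in female heart and listed at 0 in both male libraries. Its male pair therefore showed no difference, and the sexes were not opposed in it.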
